A study of Caenorhabditis elegans with 3 samples.

Results

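NHR-25 occupied 394 promoter sites on the X chromosome, of 4548 sites in the reproducible (optimal) list of the whole genome and of 895 sites on X. A promoter site was a region whose summit, the position of highest signal, lay from 1000 bp upstream to 200 bp downstream of the start of any protein-coding transcript. The choice used only the position of a site and the gene models, not its signal. The same windows held 1957 sites on the 5 autosomes, so that there were 2351 promoter sites in the nuclear genome, and 501 sites on X lay outside them.

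Chromatin immunoprecipitation and sequencing was done on whole Caenorhabditis elegans larvae at the L2 stage, of mixed sex, in 3 biological replicates that form 1 group. All of them were of strain OP33, genotype unc-119(ed3) III; wgIs33, in which an integrated transgene makes NHR-25 with GFP and FLAG tags at its C-terminus. The genotype lists no change of the worm's own nhr-25 gene, and the transgene can carry extra copies of the nhr-25 locus, which itself lies on X. Replicates 1 and 2 are labelled with a fragment size range of 150 to 350 and replicate 3 with sonication, and their stated sources differ, so the preparation of replicate 3 and its replicate number cannot be told apart.

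NHR-25 is the worm relative of the FTZ-F1 and SF-1 nuclear receptors, which bind DNA as monomers at an AGGTCA core with extra bases in front of it. In the worm it acts in epidermal cells, at the molts and in the forming vulva. The worm X chromosome is dosage compensated: in hermaphrodites a condensin-like complex is recruited to X at sites that hold a longer element (MEX) with the core GCGCAGGG, and X carries fewer germline-expressed genes than the autosomes.

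The 6 X promoter sites of highest signal outside the surroundings of nhr-25 are shown because they carry the strongest promoter binding on X. X sites outside promoters reached a signal of 1489, and 19 of them and 8 X promoter sites were among the strongest 100 nuclear sites. Each line gives the summit base and 50 bases to either side, from the RefSeq sequence of WBcel235 (ce11), plus strand, 5′ to 3′. Capitals mark any of the 8 motifs searched on both strands: the receptor site CAAGGTCA and its inner part AGGTCA, the GAGA repeat GAGAGA, the E-box CACGTG, the grainyhead-type site AACCGGTT, the hexamer GACGCA, the GATA site AGATAA and the MEX core GCGCAGGG.
nspc-17, chrX:14525896-14525996: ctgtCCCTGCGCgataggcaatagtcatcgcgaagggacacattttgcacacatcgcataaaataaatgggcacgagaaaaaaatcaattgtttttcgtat
puf-9, chrX:5841240-5841340: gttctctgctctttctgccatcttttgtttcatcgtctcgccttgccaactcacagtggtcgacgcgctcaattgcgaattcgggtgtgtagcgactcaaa
serp-1.1, chrX:15841225-15841325: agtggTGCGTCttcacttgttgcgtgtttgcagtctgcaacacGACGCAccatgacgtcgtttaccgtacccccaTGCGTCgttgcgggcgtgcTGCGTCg
tatn-1, chrX:14790414-14790514: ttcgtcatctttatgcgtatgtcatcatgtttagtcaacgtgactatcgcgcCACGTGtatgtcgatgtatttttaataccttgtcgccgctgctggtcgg
rpl-11.2, chrX:2242959-2243059: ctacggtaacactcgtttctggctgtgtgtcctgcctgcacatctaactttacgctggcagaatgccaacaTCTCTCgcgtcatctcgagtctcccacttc
kin-20, chrX:15274171-15274271: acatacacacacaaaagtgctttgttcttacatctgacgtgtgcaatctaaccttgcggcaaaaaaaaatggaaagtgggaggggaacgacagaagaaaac

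None of these 6 windows held AGGTCA. The window at nspc-17 held the GCGCAGGG core, that at serp-1.1 held several copies of GACGCA, and those at puf-9 and kin-20 held none of the 8 motifs. The 7 X promoter sites with CAAGGTCA within 50 bp of the summit are shown next, with that motif alone in capitals, since it is the extended site known for this receptor family.
gpd-2, chrX:3115162-3115262: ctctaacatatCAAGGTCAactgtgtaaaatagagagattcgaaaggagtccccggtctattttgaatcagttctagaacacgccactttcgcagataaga
F53B3.5, chrX:2879798-2879898: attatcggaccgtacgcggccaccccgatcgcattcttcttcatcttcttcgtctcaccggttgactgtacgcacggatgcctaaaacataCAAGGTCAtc
nhr-91, chrX:15312204-15312304: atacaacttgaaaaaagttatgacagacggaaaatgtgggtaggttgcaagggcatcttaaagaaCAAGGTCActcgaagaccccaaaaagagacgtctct
kynu-1, chrX:6109591-6109691: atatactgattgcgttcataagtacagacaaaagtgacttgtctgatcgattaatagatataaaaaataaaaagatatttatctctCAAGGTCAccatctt
peb-1, chrX:2216799-2216899: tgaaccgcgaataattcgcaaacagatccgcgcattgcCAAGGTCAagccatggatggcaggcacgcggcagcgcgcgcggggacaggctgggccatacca
D1005.2, chrX:1459006-1459106: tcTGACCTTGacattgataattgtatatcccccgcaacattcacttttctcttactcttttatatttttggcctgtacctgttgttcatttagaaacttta
elt-3, chrX:13939530-13939630: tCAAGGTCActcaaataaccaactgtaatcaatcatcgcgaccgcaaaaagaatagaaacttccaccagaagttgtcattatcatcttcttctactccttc

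These sites had lower signals than the strongest ones, from 127 at elt-3 to 265 at gpd-2. The 3 other X promoter sites with GCGCAGGG are shown with that core alone in capitals, because the core was at 4 X and 1 autosomal promoter summit. They were chosen for display after their values had been seen.
ins-39, chrX:1345015-1345115: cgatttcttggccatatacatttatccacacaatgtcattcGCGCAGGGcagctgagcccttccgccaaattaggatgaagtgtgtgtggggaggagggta
gcc-1, chrX:3159726-3159826: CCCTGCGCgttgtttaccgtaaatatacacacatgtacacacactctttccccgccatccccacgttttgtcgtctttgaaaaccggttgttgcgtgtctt
R04E5.9, chrX:8811102-8811202: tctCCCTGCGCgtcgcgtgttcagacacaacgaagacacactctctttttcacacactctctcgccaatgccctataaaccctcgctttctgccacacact

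X promoter sites covered much the same range of signals as autosomal ones, except that none reached the highest autosomal values. The signal, the peak caller's enrichment value for a region in the optimal list, had a median of 197 at X promoter sites (quartiles 140 and 311, highest 1363) and of 196 at autosomal promoter sites (quartiles 139 and 305, highest 2859). At X sites outside promoters the median was 177. As a percentile of signal rank among the 2351 promoter sites, the median was 50.1 on X and 49.96 on the autosomes. When the optimal promoter sites were ranked by their signal in each replicate, the median percentile on X minus that on the autosomes was −0.68 in replicate 1, 2.87 in replicate 2 and −0.383 in replicate 3. The mean difference of 0.603 ± 1.97 (SD, n = 3) was smaller than its spread, and its sign differed between replicates (exact sign-flip permutation test, two-sided, p = 1, where the smallest p that 3 replicates allow is 0.25). Among the promoter sites of each replicate's own list, chosen apart from the optimal list, it was −0.564, 2.17 and 0.466, or 0.692 ± 1.38 (SD, n = 3). Among optimal sites supported by both other replicates, the difference was −2.48, −0.378 and −0.815 without replicates 1, 2 and 3.

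Divided by signal into 5 bins, X held 76 of 471 sites in the highest bin, then 80, 76, 84 and 78 of 470, between 16.1% and 17.9% in each. The strongest 500 nuclear sites held 50 X promoter sites and 249 autosomal ones, which is 12.7% of each set. At the very top the counts were small: 6 X and 35 autosomal promoter sites had a signal of at least 1000, and 10 autosomal sites exceeded the highest X site.

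**Figure D1:**
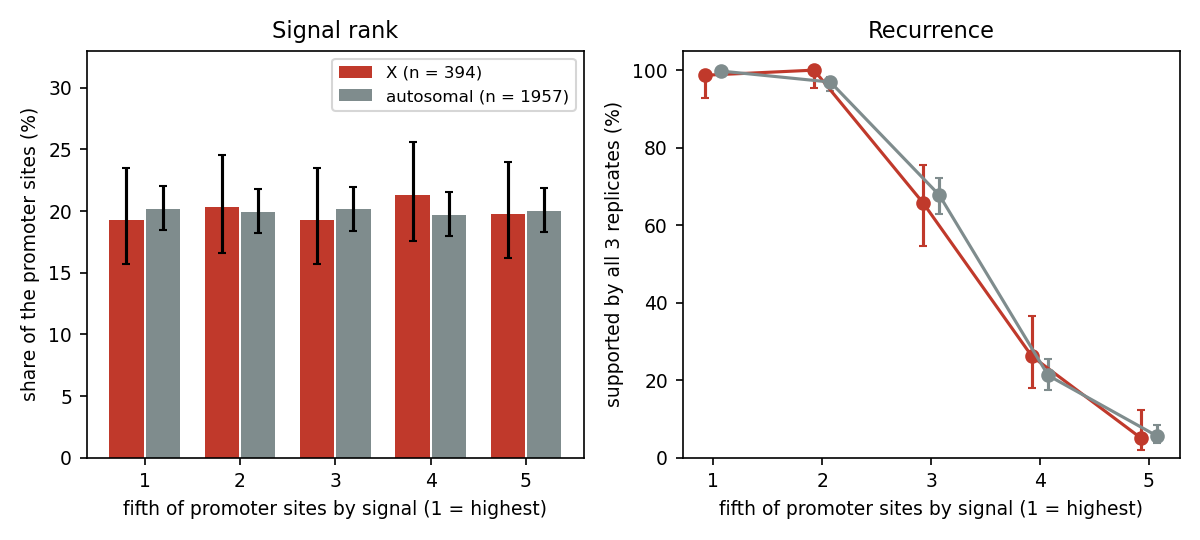
Left, share of the 394 X and 1957 autosomal promoter sites in each of 5 bins of signal rank, with 95% Wilson intervals; right, share of each bin supported by all 3 replicates. X and autosomal sites follow the same course, with 98.7% of X sites supported in the highest bin and 5.13% in the lowest. The fall itself is built in, since support is set by signal rank in the same replicates.

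The strongest X promoter site lay upstream of nspc-17, a member of a family of small nematode-specific peptides with similar copies. Its signal in the lists of replicates 1, 2 and 3 was 253, 180 and 238, on a lower scale than the optimal list, where it was 1363. The next, upstream of puf-9, a Pumilio-type RNA-binding protein of the heterochronic pathway, had 224, 178 and 220. For tatn-1, a tyrosine aminotransferase, the values were 191, 178 and 166. Replicate 2 had the lowest value at nspc-17 and puf-9 and replicate 3 at tatn-1, and all were far above the median X promoter site, which had 40.6, 31.9 and 35.5 in the 3 replicates.

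The site of rpl-11.2, a protein of the large ribosomal subunit, had 169, 162 and 169, at ranks 107, 50 and 80 in the 3 replicate lists. That of kin-20, a casein kinase I, had 172, 154 and 176. The site of ain-1, a GW182-like partner of the microRNA machinery, had 157, 117 and 102, at ranks 130, 132 and 260.

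Others of the 20 strongest were epn-1, an epsin of endocytosis, at 183, 110 and 144, rme-4, a DENN-domain protein of endocytosis, at 110, 104 and 103, and epg-7, of autophagy, at 140, 113 and 111. The regulators mdl-1, a Mad-like helix-loop-helix factor, and nipi-3, a Tribbles pseudokinase, had 124.9, 111.6 and 136 and 124, 107 and 119. The insulin-like peptide gene ins-39 had 134, 91.4 and 102, and hst-2, a heparan sulfate sulfotransferase, was highest in replicate 2, with 103, 118 and 84.7. All 20 were supported by all 3 replicates and lay upstream of the nearest start, at a median of −342.5 bp, 17 between genes and 3 in introns. Their ranks ran from 35 to 337 in replicate 1, from 18 to 255 in replicate 2 and from 34 to 404 in replicate 3. The signal was highest in replicate 1 at 15 of the 20 and lowest in replicate 2 at 13, and since the scaling of each list is not known this order across lists is a description only.

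**Figure D2:**
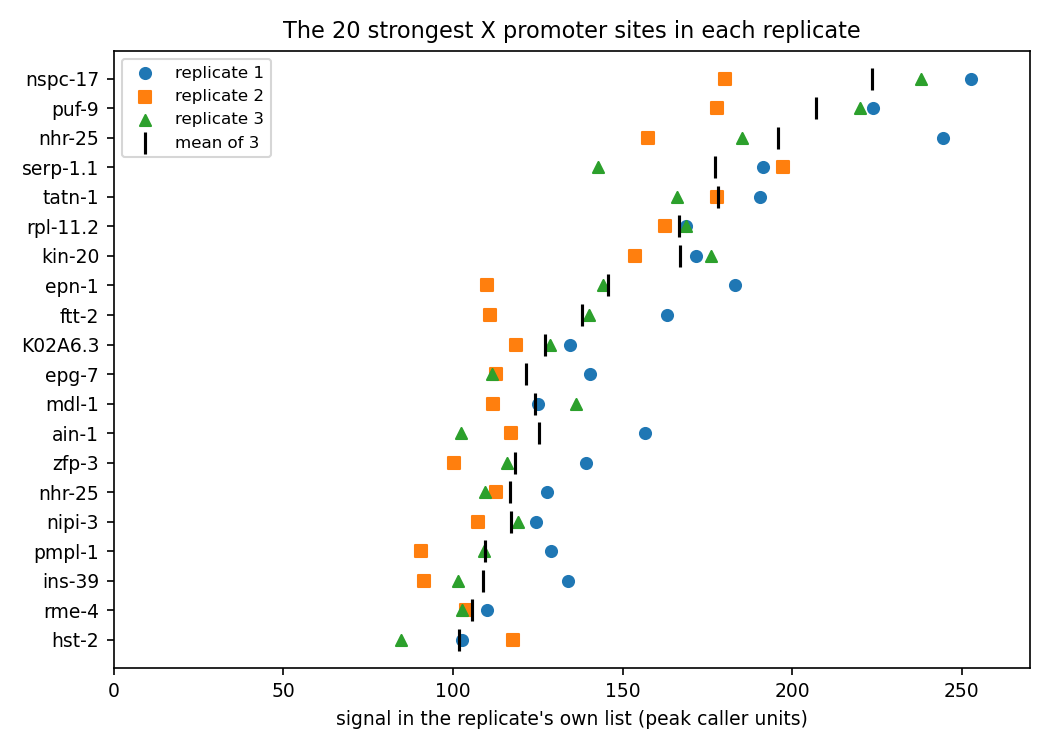
Signal in each replicate's own list (peak caller units) at the 20 X promoter sites of highest optimal signal, with the mean of the 3 as a bar. Values lie between 84.7 at hst-2 in replicate 3 and 253 at nspc-17 in replicate 1.

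The nhr-25 gene itself had 2 promoter sites. The stronger, at chrX:13008900-13009380 in an intron 132 bp upstream of a start, had 244, 157 and 185 in the replicates, and the other, at chrX:13008048-13008736, had 128, 113 and 110. Both were supported by all replicates. Within 20000 bp of the gene there were 2 further promoter sites, at F11C1.1 and vwa-8 (signal 257 in the optimal list) and at F11C1.7 and F11C1.1 (signal 165). The part that extra transgene copies play in these values was not tested.

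Between X and autosomal promoter sites, recurrence in the replicates differed by less than its spread. A site counted as supported by a replicate when it overlapped, by at least 1 bp, one of that replicate's 4548 strongest regions. All 3 replicates supported 231 of the 394 X sites (58.6%, 95% Wilson interval 53.7 to 63.4) and 1143 autosomal ones (58.4%, 56.2 to 60.6), against 58.4% over all nuclear promoter sites. Of the other X sites, 98 had support from 2 replicates, 51 from 1 and 14 from none. Replicate 1 recovered 80.2% of X sites and 83.0% of autosomal sites, replicate 2 79.7% and 77.7%, and replicate 3 78.7% and 78.4%. The difference averaged −0.171 ± 2.43 percentage points (SD, n = 3) and changed sign between replicates (exact sign-flip permutation test, two-sided, p = 1). Without replicate 1 it was 1.13. Since the optimal list was thresholded on these same replicates, high recovery is built into it, and only the comparison between chromosomes is read here.

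Support followed the signal, a trend that the definitions build in. Support was set by signal rank in the same replicates from which the optimal list derives. The median signal was 284 for X sites supported by 3 replicates, 153 by 2, 120 by 1 and 113 by none, and the 14 unsupported sites ranged from 108 to 131. The share supported by all 3 fell from 98.7% in the highest bin to 65.8%, 26.2% and 5.13% in the 3 lowest. Among X promoter sites within the strongest 500, only F28C10.3 (signal 506) lacked 1 replicate: it had 87.1 and 91.7 in replicates 1 and 2 and no region in replicate 3. With the weaker regions included, 390, 389 and 388 of the 394 sites overlapped a region of replicates 1, 2 and 3. Across X sites, the 3 pairs of replicates had Spearman correlations of 0.719, 0.696 and 0.711, compared with 0.726, 0.724 and 0.704 on the autosomes. These are across sites that share libraries and are not independent.

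The X promoter sites were spread along the chromosome, in 6 equal lengths holding 63, 61, 72, 72, 65 and 61 sites, or 12.8 to 16.2 per 100 genes. The share supported by all 3 replicates in those parts was 49.2, 59.0, 51.4, 61.1, 63.1 and 68.9%. Spacing was close to that on the autosomes: the median distance to the next promoter site was 8086 bp (quartiles 2766 and 24699) compared with 7409 bp (2185 and 21407), a ratio of 1.09. In the replicates' own lists the ratio was 1.17 ± 0.190 (SD, n = 3), and among sites supported by both other replicates it turned to 0.975 without replicate 1, so the difference does not exceed its spread. Within 5000 bp of another promoter site lay 37.1% of X sites (32.4 to 41.9) and 42.6% of autosomal sites (40.4 to 44.8), and within 1000 bp 14.5% and 13.5%. Of the 394 regions, 26 overlapped another X promoter region and 12 had both ends in common with another, so these are summits within shared regions.

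Genes are sparser on X, at 154 per megabase (Mb) compared with 209, and promoter windows cover 21.8% of X and 27.1% of the autosomes. X had 22.2 promoter sites per Mb compared with 23.7 on the autosomes, and 102 per Mb of window compared with 87.6. Single autosomes ranged from 19.9 to 29.7 per Mb and from 66.1 to 122 per Mb of window, so X lay within their range on both. X carried 16.8% of all promoter sites (15.3 to 18.3), and 16.9 ± 0.221% (SD, n = 3) in the replicates' own lists. A promoter window held 44.0% of X sites (40.8 to 47.3), below the 50.7 to 57.0% on each autosome.

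A promoter site was found for 376 of 2731 X genes, a share of 13.8% (12.5 to 15.1), and for 2302 of 17242 autosomal genes (13.4%, 12.9 to 13.9), with 13.4% over all genes. Among optimal sites supported by both other replicates, the difference of 0.417 percentage points was −0.0102 without replicate 2 and 0.0108 without replicate 3. The median of the highest signal per gene was 210 on X and 216 on the autosomes. More than 1 site was found at 43 of the bound X genes (11.4%) and 188 autosomal ones (8.17%). Sites are counted by summit, and on X some of these were summits in overlapping regions, so not all are separate regions. The genes with most sites, chosen after their values were seen, were kin-20 and myrf-2, a membrane-bound transcription factor, with 4 each, and fln-2, a filamin, with 3. The 4 sites of kin-20 had optimal signals from 148 to 992, and those of myrf-2 from 118 to 311. The kin-20 sites of signal 166 and 148 overlapped and had the same values in the replicates (29.3, 43.6 and 24.6). At the strongest myrf-2 site the replicates had 70.0, 34.7 and 64.4.

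Few X promoter sites lay in the promoter windows of more than 1 gene, whichever way those genes run. Of the X sites, 27 of 394 (6.85%, 4.75 to 9.79) did so, and 530 of 1957 on the autosomes (27.1%, 25.2 to 29.1), where the single chromosomes ranged from 21.9 to 33.2%. In the replicates' own lists the shares were 7.69 ± 0.914% and 28.6 ± 0.235% (SD, n = 3). Windows of more than 1 gene also cover less of X, 4.50% of window bases compared with 11.3% on the autosomes. The strongest shared sites on X were those of C28G1.2 and sec-15, an exocyst subunit, with 84.9, 77.6 and 81.8 in the replicates, and of glit-1 and dnj-14, a DnaJ-type chaperone, with 84.3, 77.8 and 83.9. The site of trap-2 and ile-2 had 44.9, 62.5 and 88.4, at ranks 1807, 591 and 358 in the replicate lists. Shared X sites had a median signal of 220, and 19 of 27 were supported by all replicates; sites in 1 gene's window had 195 and 212 of 367.

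**Figure D3:**
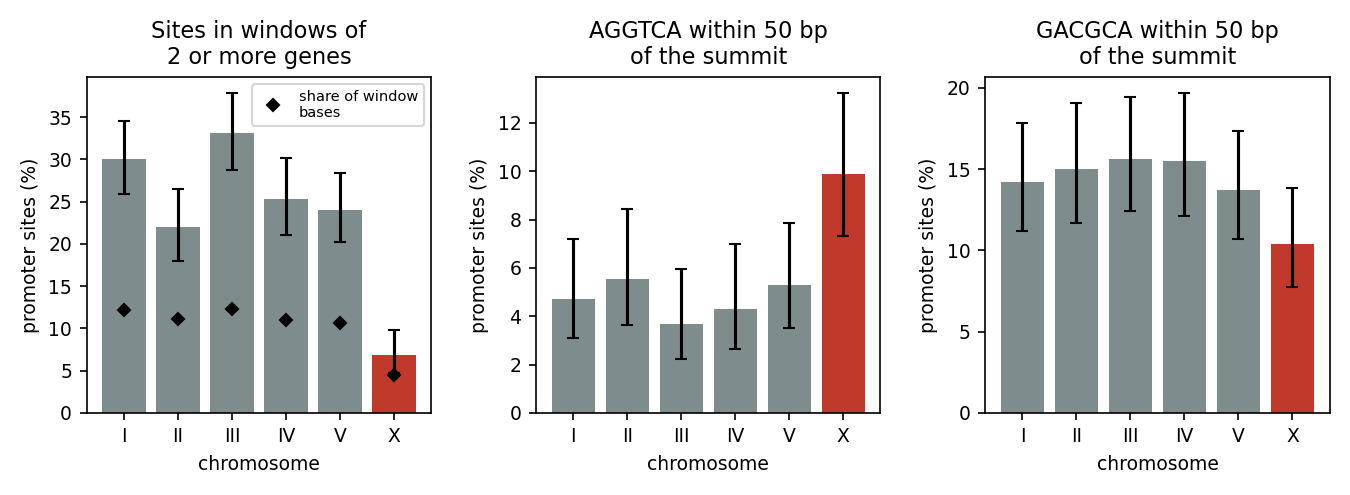
Share of promoter sites on each chromosome that lie in the windows of 2 or more genes (diamonds: share of window bases that do), and that hold AGGTCA or GACGCA within 50 bp of the summit, with 95% Wilson intervals. X, in red, is at 6.85%, 9.90% and 10.4%.

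Summits on X lay farther from the start. The median was −255 bp, compared with −206 bp on the autosomes, and 38.1% of X summits (33.4 to 43.0) were within 200 bp of a start compared with 49.3% (47.1 to 51.5). On single autosomes the median ran from −245.5 bp on chromosome II to −181 bp on III, and the share from 43.6% to 53.4%. Window bases within 200 bp made up 36.4% and 38.5%. Upstream positions made up 92.4% in both sets. The gap to the next gene upstream had a median of 2201 bp at bound X genes and 2111 bp at unbound ones, and of 624 and 878 bp on the autosomes. Of the X sites, 286 lay between genes (72.6%), 71 in introns (18.02%), 28 in UTRs (7.11%) and 9 in coding exons (2.28%), close to the 73.0, 17.3, 7.20 and 2.50% on the autosomes. At the edge of the window, summits just inside were those of T01C8.3 at −997 bp, got-1.2 at −993 bp and aat-3 at +200 bp, with signals of 122, 154 and 142. Just outside were fbxb-58 at −1005 bp (601), hbl-1 at −1013 bp (183) and sma-9 at +255 bp (256).

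**Figure D4:**
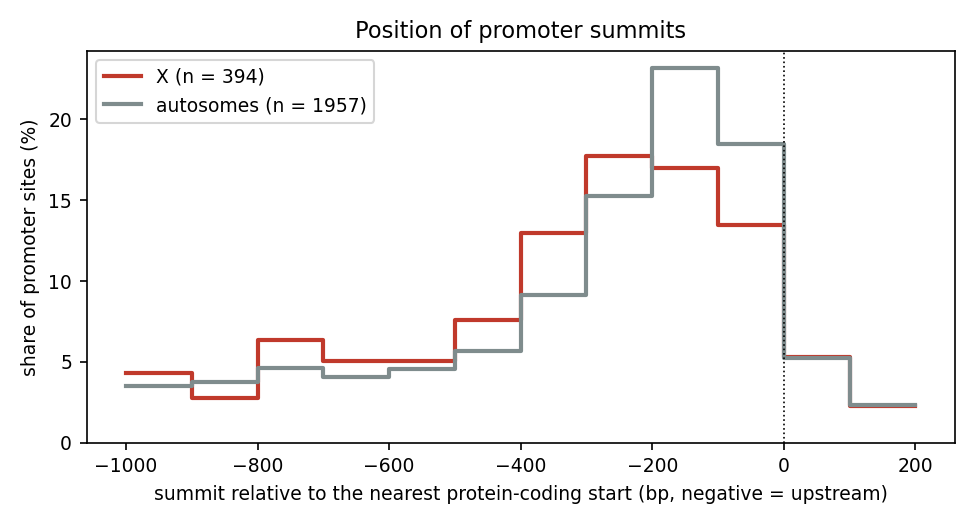
Share of X and autosomal promoter sites by the position of the summit relative to the nearest protein-coding start, in bins of 100 bp. The bin from −200 to −100 bp holds 17.01% of X and 23.2% of autosomal sites, and that from −400 to −300 bp 12.9% and 9.15%.

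AGGTCA was more frequent at X promoter summits than at autosomal ones, and also frequent at X sites outside promoters (40 of 501, 7.98%, 5.92 to 10.7). It lay within 50 bp of 39 X summits (9.90%, 7.33 to 13.2) and of 92 autosomal ones (4.70%, 3.85 to 5.73), with 3.66 to 5.56% on single autosomes, beside 2.89% and 2.53% over all promoter windows cut to the same length. In the replicates' own lists the share was 7.60 ± 0.739% on X and 4.89 ± 0.0429% on the autosomes (SD, n = 3), higher on X in all 3 (exact sign-flip permutation test, two-sided, p = 0.25, the smallest this design allows). Outside CAAGGTCA there were 32 and 79 such sites. CAAGGTCA itself was at 7 X (1.78%, 0.863 to 3.62) and 13 autosomal promoter summits (0.664%, 0.389 to 1.13), and at 1.60% of X sites outside promoters. Over all promoter windows it was at 0.243% and 0.146%. In the replicates' own lists it was at 1.31, 1.02 and 0.261% on X and 0.676, 0.524 and 0.694% on the autosomes. The difference of 0.232 ± 0.580 points (SD, n = 3) was smaller than its spread and reversed in replicate 3. The strongest X sites with AGGTCA, chosen for that motif after their values were seen, were pmpl-1 (651), F17E5.2 (565) and C28G1.2 with sec-15 (478).

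X sites with AGGTCA were weaker and recurred less than the other X sites: 17 of 39 (43.6%) had support from all replicates and the median signal was 152, compared with 214 of 355 (60.3%) and 200. On the autosomes the values with AGGTCA were 63.04% and 210, and 58.2% and 195 without it. These differences have no test. Base composition also differed. The GC content of the sequence within 50 bp of the summit was 46.5% at the median X summit and 43.6% at the autosomal one, and 44.6 ± 0.375% and 42.2 ± 0.244% in the replicates' lists. It was higher on X in all 3 (difference 2.41 ± 0.258, SD, n = 3, exact sign-flip permutation test, p = 0.25), while promoter windows as a whole had 35.3% on both. Within bins of GC content, the share with AGGTCA was higher on X in each: 13.2% and 5.75% under 40% GC, 11.6% and 4.63% from 40 to 50%, and 5.63% and 3.04% above.

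Of the other motifs, GAGAGA was at 23.4% of X and 22.5% of autosomal summits (6.11 and 5.93% of all windows). In the replicates' own lists it was at 22.7 ± 1.19% and 19.8 ± 0.321% (SD, n = 3), higher on X in all 3 by 2.98 ± 1.21 points (exact sign-flip permutation test, two-sided, p = 0.25). CACGTG was at 6.85% and 5.57%, and AGATAA at 7.87% and 6.64%. GACGCA was at 10.4% of X summits (7.76 to 13.8) and 14.8% of autosomal ones (13.3 to 16.4), and in the replicates' lists at 10.4 ± 1.35% and 14.2 ± 0.810% (SD, n = 3), lower on X in all 3 (exact sign-flip permutation test, two-sided, p = 0.25). AACCGGTT was at 1.78% and 0.971%. The GCGCAGGG core was at 4 X (1.02%) and 1 autosomal promoter summit (0.0511%), beside 0.0444% and 0.0280% of all windows, and at 11 X sites outside promoters (2.20%). All 4 of the X promoter sites with it were supported by 3 replicates, at nspc-17, ins-39, gcc-1, and R04E5.9 with cnnm-2. At the summits of the replicates' own lists the core was rarer in replicate 3. It was at 0.783, 0.767 and 0.261% on X and 0.0520, 0.0524 and 0% on the autosomes.

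Transfer RNA genes lay within 250 bp of 9 X promoter summits (2.28%, 1.21 to 4.28) and of 12 autosomal ones (0.613%, 0.351 to 1.07). Single autosomes ran from 0% on chromosome I to 1.72% on IV, which lies inside the X interval. X has 276 tRNA genes and the autosomes 336 in all, and the share of window bases that near one is 0.671 and 0.231%. At X sites outside promoters the share was 6.39%. Of the 9 sites, 4 had support from 3 replicates, among them C28G1.2 with sec-15 and sor-3. Those at smvt-1 and at lev-9 with mom-1 had support from 1, and those at ajm-1 and C04C11.25 from none. No microRNA gene lay that near to any of the 394 sites, and a limit of 3 counts of the total allows a share of up to 0.761% (Wilson upper limit 0.966%).

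Of 7 heterochronic genes on X, which time larval divisions, 5 had a promoter site (71.4% beside 13.8% for all X genes, and 5 of 11 on the autosomes): puf-9, kin-20, ain-1, lin-14 and alg-1. The microRNA target lin-14 had 53.0, 69.3 and 54.3 in the replicates, and the Argonaute alg-1 had 60.3, 45.6 and 40.2. Neither daf-12 nor hbl-1 had a site, and the nearest summit of hbl-1 lay just outside the window. All 4 X-linked members of the list of epidermal and seam transcription factors had one, beside 6 of 17 on the autosomes. They were nhr-25, myrf-2, peb-1 and elt-3, a GATA factor. That list of 21 genes was chosen with earlier results of these data known, so it does not stand for all epidermal factors on X. The elt-3 site and the stronger peb-1 site were weak and supported by 1 replicate each, with 18.5, 25.6 and 16.6 and with 12.8, 30.7 and 21.9.

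Of 27 nuclear hormone receptor genes on X, 10 were bound (37.04% beside 13.8% for all X genes), and 39 of 247 on the autosomes. After nhr-25, the strongest were nhr-35 (71.6, 54.8 and 86.6), nhr-1 (91.2, 57.9 and 55.7) and nhr-32 (44.8, 55.4 and 64.0). In the list of TGF-beta and body size genes, 3 of 6 X genes (50%) and 4 of 19 autosomal ones were bound. The bound X genes were sma-9, a Schnurri-like factor, adt-2 and kin-29. In the EGF, Ras and Notch list 4 of 12 X genes (33.3%) and 1 of 20 autosomal ones were bound, with dpy-23, a clathrin adaptor subunit (88.1, 89.7 and 108), sem-5, lst-2 and sur-5 on X. The lst-2 site had support from 2 replicates and the sur-5 site from 1. The vacuolar proton pump had 2 of 3 X genes and 7 of 18 autosomal ones, with vha-12 at 89.7, 79.4 and 83.7 and vha-15 at 40.5, 47.6 and 58.6.

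Structural and neuronal lists were near or below the share of all X genes. Cuticle collagens had 4 of 30, led by col-166 (45.6, 42.8 and 28.98) and col-167 (39.7, 28.2 and 32.8). Molting and apical matrix genes had 2 of 14, lpr-3 and sym-1, and the muscle list, which includes myo-2 of the pharynx, 1 of 14, act-4. The homeobox list, which also counts unc-3 of another family, had 1 of 28, dve-1, with 52.4, 23.2 and 57.0. Neuropeptide and insulin-like genes had 1 of 38, ins-39. On the autosomes, in the same order, these lists had 24 of 143, 6 of 50, 4 of 30, 6 of 66 and 7 of 107 genes bound. The share of all autosomal genes was 13.4%. None of 6 listed X signal and dosage compensation genes and none of 8 acetylcholine receptor genes on X had a promoter site, where a limit of 3 counts of the total allows shares of up to 50% and 37.5%. Of the autosomal members of these lists, 4 of 9 and 1 of 24 were bound. Single members were bound among innexins (inx-5, of 6), ribosomal proteins (rpl-11.2, of 2), glycolysis (gpd-2, a glyceraldehyde-3-phosphate dehydrogenase, of 3), lipid metabolism (acs-17, of 8) and Wnt genes (mom-1, of 4). In that order the shares were 16.7, 50, 33.3, 12.5 and 25% of few X genes, beside 13.8% for all X genes. Of the autosomal ribosomal protein genes, 64 of 79 were bound (81.0% beside 13.4% for all autosomal genes).

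**Figure D5:**
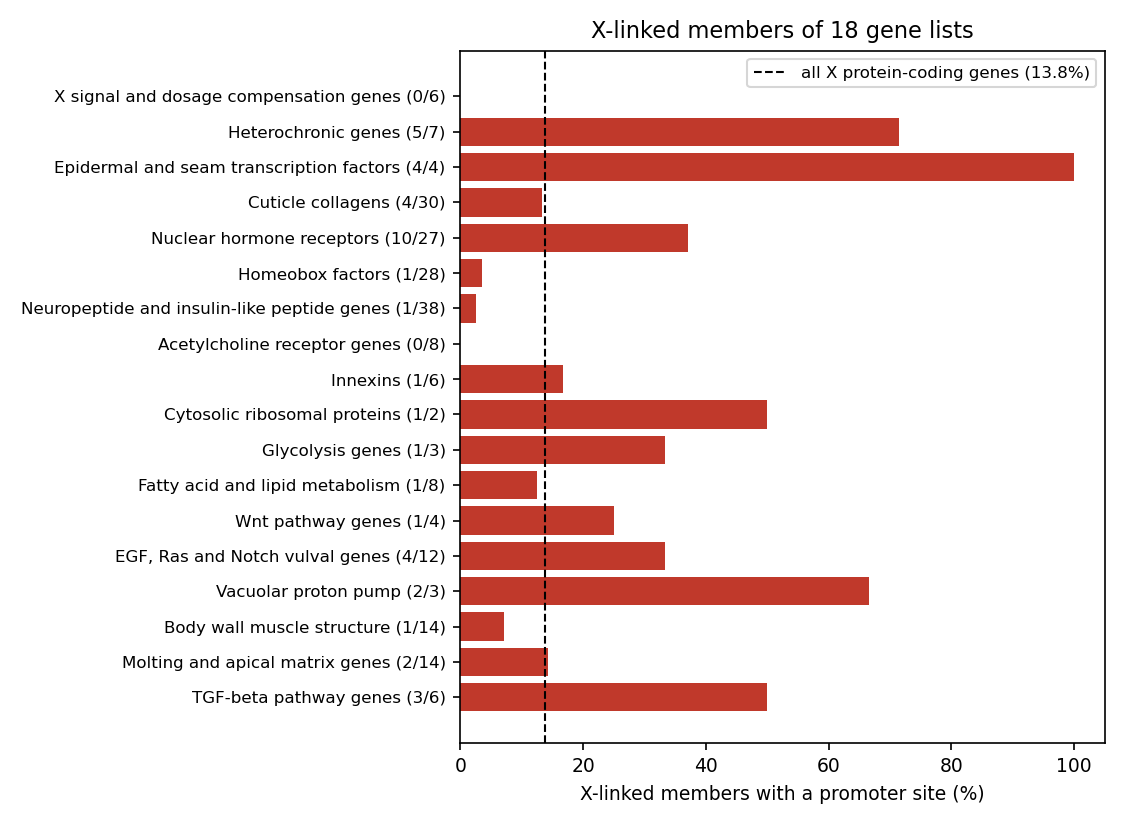
Share of the X-linked members of 18 gene lists with a promoter site, bound and total given in the labels; the dashed line is the share of all X protein-coding genes. Shares run from 0 to all members, and most lists hold few X genes.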

How the data were processed

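NHR-25 binding was profiled in 3 replicates of 1 group. The authors called regions per replicate and on the pool of the 3 against a shared control, per the deposited notes, which list 30000 regions per replicate mixing peaks and background; the optimal list holds the regions that passed a reproducibility threshold. Which aligner and caller made them is not given in the sources used here. A region's deposited signal is the peak caller's value, whose scaling is not stated, and was used for ranks and levels within a list. Read depth is unknown, since peak lists give no counts, and intervals cover counting error only.

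The ce11 lists were used with Ensembl release 115 gene models and the RefSeq WBcel235 sequence, 1-based. Each replicate list was cut to its 4548 strongest regions, the length of the optimal list. Of genes with a shared or missing name (231), 121 were named from RefSeq. Shares carry 95% Wilson intervals, and differences over replicates an exact two-sided sign-flip permutation test. Motifs were searched within 50 bp of the summit. Computation used Python 3.11.15, numpy 2.4.6, pandas 2.3.3, scipy 1.17.1 and matplotlib 3.10.9, and the programs were tested on simulated data. Named genes were those of the 20 strongest X promoter sites, up to 4 bound members of each of 18 lists, nhr-25 and its neighbours within 20000 bp, and those said to be chosen after their values. The members and lists were chosen with earlier results of these data known. Alternatives were other windows, list lengths, overlaps, merging, leaving out sites near nhr-25 and leaving out each replicate; leaving each out for the share in windows of several genes was added after seeing the data.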

Additional observations from a re-analysis of the deposited data

How the results depend on the processing

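No paired analysis was possible because all 3 replicates form 1 group, so no groups could be paired by replicate number; X and autosomes were compared within each replicate. The excess of shared windows on autosomes kept its direction in every alternative run: the difference of −20.2 percentage points became −16.7 with 500 bp windows and −25.1 in the 2274 regions of highest signal, and ran from −23.2 to −21.9 without single replicates, an alternative chosen after seeing the data. Leaving out a replicate kept the optimal sites supported by both others, from a list still thresholded on all 3. For the recovery and support differences it kept all optimal promoter sites and dropped only that replicate's list. The small differences elsewhere did not keep their sign or size. The rank difference of 0.17 percentiles was −1.13 with 500 bp windows, −1.24 with 2000 bp, −0.314 in the strongest 2274 and −0.505 with overlapping regions merged, and −2.48 to −0.378 without single replicates. The recovery difference of −0.171 was 0.204 with 500 bp windows, 0.3005 with 0.5 times as many regions per replicate, −1.76 at 50% overlap, −1.17 with 2000 bp windows, −1.02 with summits within 100 bp, and −1.27 to 1.13 without single replicates. The support difference of 0.224 was −1.32 with 2000 bp windows, −1.28 in the strongest 2274, −1.40 at 50% overlap, −2.78 with 0.5 times as many regions and −0.852 to 2.07 without single replicates. The share on X of 16.8% was 16.2% with 500 bp, 17.2% with 2000 bp, 17.03% in the strongest 2274 and 16.6 to 17.2% without single replicates. The bound-gene difference of 0.417 was 0.115 with 2000 bp and −0.0102 to 0.419 without single replicates; the spacing ratio of 1.09 was 1.43 in the strongest 2274 and 0.975 to 1.26 without single replicates. The cause was not tested. Leaving out sites near nhr-25 moved no result by more than its spread.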
